A study of Mus musculus with 20 samples.

Results

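The EGF receptor family and its ligands were read from the gene counts of kidney tumors and normal kidneys of mice. The 10 genes were taken by gene name from the 54532 genes of the count table: the ligands Egf, Tgfa, Areg, Hbegf, Btc and Ereg, and the receptors Egfr, Erbb2, Erbb3 and Erbb4. Of these, 9 passed the filter on low counts, and Ereg did not.

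EGF family ligands are made as membrane-bound precursors and are cut from the cell surface by metalloproteases such as Adam10 and Adam17 before they bind receptors on the same or on nearby cells. The receptors are tyrosine kinases that work as dimers. Erbb2 binds no ligand by itself and serves as a partner, Erbb3 has little kinase activity of its own and recruits PI3K, and Egfr and Erbb4 bind ligands and signal through the MAPK cascade. In the kidney, Egf is made in the thick ascending limb and the distal convoluted tubule. It reaches the urine, and it also acts on magnesium transport in the tubule. Human clear cell renal carcinoma is known for high TGFA, the gene of transforming growth factor alpha.

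All mice were LSL-Cas9/+; Pax8 Cre/+ on a C57BL/6 background and had received, by injection into the kidney as adults, an adeno-associated virus (AAV) carrying sgRNAs against Vhl, Pbrm1, Keap1 and Tsc1. Pax8 drives Cre in renal tubule cells, among others, so Cas9 is made there without Cre in the virus. RNA of 10 tumors from 10 mice was sequenced beside that of 10 pieces of normal kidney, which the series' design text says came from the same mice, so the normal kidneys carry the same Cas9 and Cre alleles. Age at collection and whether the normal pieces were from the injected kidney are not given in the sources used here.

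Total counts per library lay between 14737516 and 26679704, and 15354 genes passed the filter. The guides cut DNA and need not lower the transcript. Vhl had a median of 17.9 CPM (counts in each library scaled to a common total) in tumors and 25.9 CPM in normal kidneys, with 9 of 10 tumors below every normal kidney. Tsc1 was also lower in tumors (median 29.9 against 55.5 CPM, log2 fold change -0.61, edgeR adjusted p = 0.00871), although the groups overlapped. Pbrm1 (median 50.9 against 66.7 CPM) overlapped and did not differ detectably (edgeR adjusted p = 0.23). Keap1 was higher in tumors (median 82.3 against 46.4 CPM), with the lowest tumor at 55.96 CPM and the highest normal kidney at 50.56 CPM. Several libraries stood apart. Normal kidneys 5, 7 and 8 had a summed level of 8 tubule injury markers of 28930 to 49820 CPM, against 2423 to 4678 CPM in the other 7. Normal kidney 9 had counts shifted by gene length, with a median log2 difference from the other normal kidneys of 1.17 for 1829 genes under 1500 bases and of -0.88 for 4311 genes over 6000 bases. Tumor 7 held 7986 CPM of 6 fibroblast and pericyte markers, against 133 to 596 CPM in the other tumors. Results that turn on these libraries are given with and without them.

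The tumors differed from the normal kidneys in both ligands and receptors. Of the 9 genes tested, Areg rose, Egf, Tgfa, Erbb4, Erbb2 and Egfr fell, and Hbegf, Btc and Erbb3 were not called (edgeR quasi-likelihood test, adjusted p under 0.05 over all genes tested). Over all 15354 genes, 47.5% were called, 23.6% as higher and 23.8% as lower. The median log2 fold change of the 9 genes was -0.58, against -0.02 for all genes tested. Every tumor lay below every normal kidney for Egf and Erbb4, which held for 4.74% of all genes, and above every normal kidney for Areg, which held for 5.87%. Groups without overlap in either direction made up 10.6% of all genes. The plot of single libraries shows the 10 genes side by side.

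**Figure D1:**
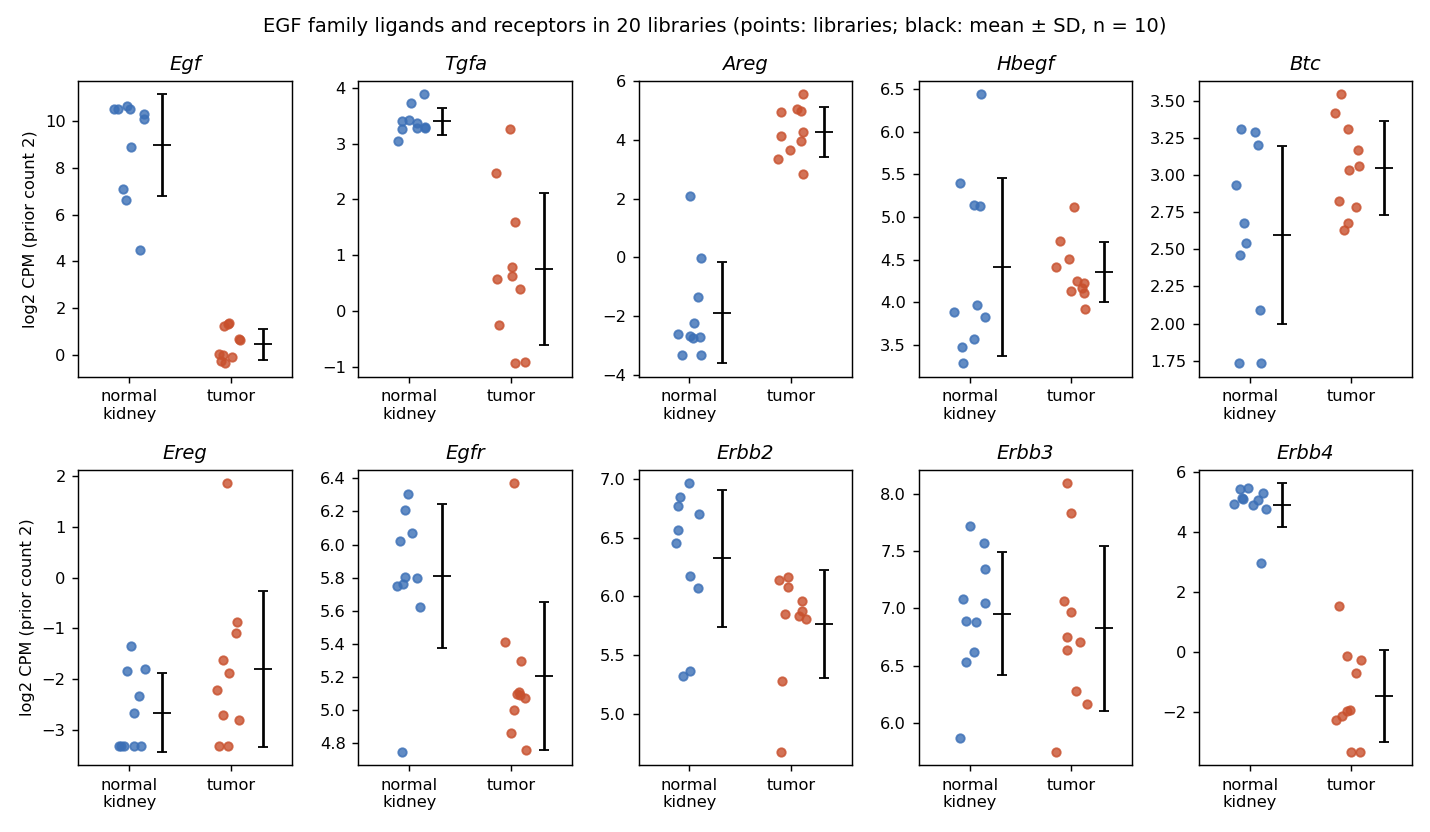
Level of each family gene in each library as log2 CPM with a prior count of 2, for 10 normal kidneys (blue) and 10 tumors (red), each panel with its own axis; black bars give the mean ± SD. Egf and Erbb4 are lower and Areg is higher in each tumor than in any normal kidney, while Hbegf, Btc and Erbb3 overlap.

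Egf, the founding ligand of the family, had the largest fall in it. In normal kidneys it was at 22.3 CPM in the lowest library, 1170 CPM at the median and 1598 CPM in the highest, against 0.685, 1.20 and 2.47 CPM in tumors. No tumor came near any normal kidney, although the normal kidneys themselves spread over 71.6-fold. The log2 fold change was -9.32 ± 0.758 (SE, edgeR adjusted p = 2.42e-09), a 638-fold lower level, and 32 genes of the table fell further. The tumors had 13 to 46 reads of Egf each and the normal kidneys 611 to 29880. Markers of the segments that make Egf moved with it. Of 10 distal nephron markers, 9 were tested, 8 fell and none rose, with a median log2 fold change of -9.66, and their summed level was 50.4 to 212 CPM in tumors against 4186 to 10330 CPM in normal kidneys. Calb1 and Pvalb, which mark the distal convoluted tubule, had at most 3 counts in any tumor. In bulk tissue, fewer cells of a type and less RNA per cell cannot be told apart, and this holds for each fall described here. Egf lies at chr3:129677565-129755316 on the minus strand (GRCm38), and an antisense gene in it, 6330410L21Rik, had 235 counts in all libraries together, against 168911 for Egf.

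Areg encodes amphiregulin, a ligand of Egfr, and was the single family gene called higher. It was at 7.00, 18.5 and 46.8 CPM in the lowest, median and highest tumor, and at 0, 0.060 and 4.20 CPM in normal kidneys. All tumors were above all normal kidneys. The highest normal kidney was number 7, with 115 counts, followed by number 5 with 18 and number 8 with 6, and the remaining 7 had between 0 and 2 counts. Areg rose by a log2 fold change of 5.18 ± 0.799 (SE, edgeR adjusted p = 1.75e-05), or 36.3-fold, and 67 genes rose further. It was 6.96 without normal kidney 7 and 8.73 without normal kidneys 5, 7 and 8, so the size, not the call, depended on these libraries. Areg lies at chr5:91139599-91148432 on the plus strand. Its neighbours on chromosome 5 encode 3 more ligands of the family within 375.5 kb: Epgn, 39.4 kb before Ereg, then Ereg, 45.9 kb before Areg, and Btc, 209 kb beyond it. The neighbours were not high in the tumors. Epgn, which encodes epigen, had at most 2 counts in any library, and Ereg and Btc are described in the next paragraphs.

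The promoters of the 4 genes with the largest fold changes are shown because these changes go in opposite directions. Each is the 250 bases before a RefSeq transcript start (GRCm38.p6), read 5′ to 3′ on the strand of the gene, with matches to the searched motifs in capitals: the hypoxia response core (ACGTG or GCGTG), the antioxidant response core (TGACNNNGC), the AP-1 site (TGANTCA) and the cAMP response element (TGACGTCA), on both strands.
Areg, chr5:91139349-91139598, plus strand: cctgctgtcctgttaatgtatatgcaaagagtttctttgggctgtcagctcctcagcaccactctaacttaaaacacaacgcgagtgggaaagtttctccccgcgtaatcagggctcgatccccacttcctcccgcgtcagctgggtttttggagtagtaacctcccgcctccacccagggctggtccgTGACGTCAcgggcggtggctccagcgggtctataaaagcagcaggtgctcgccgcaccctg
Egf, chr3:129755323-129755572, minus strand: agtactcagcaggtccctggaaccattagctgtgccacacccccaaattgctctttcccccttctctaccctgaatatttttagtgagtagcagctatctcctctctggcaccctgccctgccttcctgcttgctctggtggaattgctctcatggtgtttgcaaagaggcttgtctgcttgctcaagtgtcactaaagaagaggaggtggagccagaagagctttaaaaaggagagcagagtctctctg
Erbb4, chr1:69108060-69108309, minus strand: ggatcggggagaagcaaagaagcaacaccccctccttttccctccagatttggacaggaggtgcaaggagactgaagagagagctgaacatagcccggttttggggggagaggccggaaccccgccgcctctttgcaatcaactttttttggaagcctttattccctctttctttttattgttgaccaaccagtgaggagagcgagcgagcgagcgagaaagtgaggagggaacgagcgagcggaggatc
Tgfa, chr6:86194972-86195221, plus strand: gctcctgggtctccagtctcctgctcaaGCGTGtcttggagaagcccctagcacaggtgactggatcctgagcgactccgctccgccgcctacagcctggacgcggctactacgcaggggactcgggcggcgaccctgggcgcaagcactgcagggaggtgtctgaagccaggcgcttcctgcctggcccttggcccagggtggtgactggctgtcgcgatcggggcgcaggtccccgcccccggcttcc
The Areg window holds a cAMP response element 61 to 54 bases before the start, which 1.55% of 32851 RefSeq promoter windows of the same length hold. With 4 motifs searched in 8 windows, this rate for a single window understates how often some match arises. The Tgfa window holds 1 hypoxia response core, 222 to 218 bases before the start, which 38.6% of all windows hold. None of the motifs was found in the Egf and Erbb4 windows shown, nor in those of Egfr and Erbb2. A further Egf start inside the gene, with its window at chr3:129725087-129725336, has 1 hypoxia response core, and Btc has 2. The antioxidant response core was in 10.2% and the AP-1 site in 6.75% of all windows. A match of letters is a description and does not show that a factor binds.

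Tgfa, the ligand for which the human disease is known, was lower in the mouse tumors. It was at 8.11, 9.98 and 14.6 CPM in the lowest, median and highest normal kidney, and at 0.422, 1.41 and 9.43 CPM in tumors. Of the tumors, 9 lay below every normal kidney, and tumor 9 fell within their range. The second highest, tumor 7, was at 5.42 CPM. These were also the 2 tumors with the most RNA of 5 urothelium markers (Upk1a, Upk1b, Upk2, Upk3a and Krt5), whose summed level was 126 CPM in tumor 7, 19.7 CPM in tumor 9, 0.342 to 2.10 CPM in the other 8 tumors and 4.27 to 43.5 CPM in normal kidneys. This was not particular to urothelium. The same 2 tumors had the highest summed fibroblast, macrophage, neutrophil, endothelium, podocyte and mast cell markers. Macrophage markers, for example, were at 2002 CPM in tumor 7 and 1083 CPM in tumor 9. The part of any of these cell types in the Tgfa values was not tested. Tgfa had a log2 fold change of -2.07 ± 0.452 (SE, edgeR adjusted p = 0.000747), and -2.59 without tumor 9. Normal kidneys varied by 1.80-fold from lowest to highest, tumors by 22.4-fold. The tumors had 8 to 231 reads of Tgfa each, with a median of 28.5, so the lower end of that spread rests on few reads. Normal kidneys 5 and 7 were the highest of their group, at 14.6 and 13.1 CPM, where Egf was low. Tgfa lies at chr6:86195223-86275719 on the plus strand.

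Hbegf encodes heparin-binding EGF-like growth factor, which binds Egfr and Erbb4 and is an early response gene of injured tubules. It was at 9.66, 15.1 and 86.4 CPM in the lowest, median and highest normal kidney and at 15.1, 18.8 and 34.6 CPM in tumors. The normal kidneys split around the tumors: numbers 5, 7, 8 and 9 were above every tumor at 35.0 to 86.4 CPM, and the other 6 were between 9.66 and 15.6 CPM, 5 of them below every tumor. Over all libraries the log2 fold change was -0.39 ± 0.344 (SE, edgeR adjusted p = 0.364), with an approximate 95% interval of -1.07 to 0.28. Without normal kidneys 5, 7 and 8 it was 0.40 (adjusted p = 0.173), and limma-voom with quality weights, which gives less weight to libraries that stand apart, gave 0.56 (adjusted p = 0.00828). The direction for Hbegf therefore rested on which normal kidneys were counted. Hbegf is on chromosome 18.

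Btc encodes betacellulin, which binds Egfr and Erbb4. It was at 3.22, 6.01 and 9.83 CPM in normal kidneys and at 6.09, 8.18 and 11.6 CPM in tumors. Of the tumors, 3 were above every normal kidney, and 5 normal kidneys were below every tumor. Its log2 fold change of 0.38 ± 0.215 (SE, edgeR adjusted p = 0.152) was not past the threshold, with an approximate 95% interval of -0.04 to 0.80. The lowest 3 normal kidneys were numbers 5, 7 and 8, at 3.22, 4.16 and 3.22 CPM. With the library number as a block it was 0.45 (edgeR adjusted p = 0.0247) and past the threshold, and 9 of 10 tumors were above the normal kidney of their number, although no label says that a number stands for a mouse. Over the 10 alternatives other than fits without 1 library, the log2 fold change of Btc ran from 0.13 to 0.45. Of these, only the fit with the block called it. The gene lies at chr5:91357261-91402994 on the minus strand.

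Ereg encodes epiregulin, a ligand of Egfr and Erbb4, and was near the floor of the assay. It had 0 to 8 counts in normal kidneys, 5 of which had none, and 0 to 9 counts in 9 of the tumors. Tumor 7 stood alone with 83 counts, or 3.54 CPM. The gene did not pass the filter, so no test is given for it in the comparison. A fit of all genes with a count gave a log2 fold change of 2.55 (edgeR adjusted p = 0.0441), which tumor 7 dominates by its counts, 83 of 112 in the tumors. The urothelium, fibroblast, macrophage and neutrophil markers were likewise highest in tumor 7 among the tumors, and their part was not tested. Ereg lies at chr5:91074622-91093646 on the plus strand.

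The receptors changed less, with the exception of Erbb4. This neuregulin receptor was at 7.60, 33.4 and 43.5 CPM in the lowest, median and highest normal kidney and at 0, 0.160 and 2.78 CPM in tumors. Tumors 4 and 8 had no counts, which allows up to 3 counts in each, and tumor 9, with 68 counts, was the highest of the tumors but still below every normal kidney. Erbb4 fell with a log2 fold change of -5.84 ± 0.629 (SE, edgeR adjusted p = 1.51e-07), or 57.3-fold lower, and -6.76 without tumor 9. The lowest normal kidney was number 9, which had few counts of long genes, and the transcript of Erbb4 is among the long ones, with 12.4 kb of exon. Its log2 difference from the mean of the other normal kidneys was -2.17 for Erbb4, against a median of -0.88 for genes over 6000 bases. The part of length in the Erbb4 value was not tested. The next lowest normal kidney was at 26.8 CPM. Markers of the collecting duct fell beside Erbb4 as those of the distal nephron did: 8 of 8 were called lower, and their summed level was 1.85 to 39.9 CPM in tumors and 276 to 1260 CPM in normal kidneys. Erbb4 lies at chr1:68032186-69108059 on the minus strand.

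Egfr, the receptor that Egf, Tgfa and Areg bind, was at 26.7, 55.6 and 79.1 CPM in the lowest, median and highest normal kidney. In tumors it was at 26.98, 34.0 and 82.7 CPM. The highest value of all 20 libraries was that of tumor 7, and the other 9 tumors were between 26.98 and 42.4 CPM. The lowest normal kidney was again number 9, and the next was at 49.1 CPM, above all tumors but number 7. The log2 fold change was -0.58 ± 0.195 (SE, edgeR adjusted p = 0.0182). It was -0.88 (adjusted p = 7.91e-07) with tumor 7 and normal kidney 9 left out, and -0.48 (adjusted p = 0.0802) without normal kidneys 5, 7 and 8, where the call was lost. Tumor 7 had 33.8% of its ligand transcripts as Areg, the lowest share of the tumors. Markers of fibroblasts, macrophages (2002 CPM), neutrophils (415 CPM) and urothelium (126 CPM) were highest in it among the tumors, and their part in its Egfr level was not tested. Egfr lies at chr11:16752203-16918158 on the plus strand.

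Erbb2 was at 39.9, 91.1 and 125 CPM in the lowest, median and highest normal kidney and at 25.4, 58.1 and 71.7 CPM in tumors. Of the normal kidneys, 7 were above every tumor. The other 3 were numbers 7, 8 and 9, at 39.9, 67.1 and 41.1 CPM. The log2 fold change was -0.60 ± 0.212 (SE, edgeR adjusted p = 0.0244), and without normal kidney 2 it was -0.52 with an adjusted p of 0.051, just short of the threshold. Erbb2 lies at chr11:98412470-98437716 on the plus strand and overlaps the gene Mien1 of the opposite strand, which had 6890 counts in all libraries against 27712 for Erbb2. Whether strand was used in counting is not given in the sources used here, so reads of the shared bases may be split between them.

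Erbb3 did not differ detectably between the groups. It was at 58.3, 125 and 210 CPM in the lowest, median and highest normal kidney and at 53.7, 106 and 272 CPM in tumors. The groups overlapped over nearly their whole range, with tumors 5 and 8 (272 and 228 CPM) highest and tumor 7 lowest. Its log2 fold change was -0.046 ± 0.27 (SE, edgeR adjusted p = 0.905), with an approximate 95% interval of -0.57 to 0.48, and its sign changed in 6 of the alternative settings. Erbb3 lies at chr10:128567523-128589652 on the minus strand.

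Levels of different genes were compared per length, as CPM per kb of exon, unless stated otherwise. In normal kidneys the order of mean levels was Egf (80.3 ± 57.4, SD, n = 10), Erbb3 (21.8 ± 7.60), Erbb2 (16.4 ± 5.70), Hbegf (11.6 ± 10.0), Egfr (5.12 ± 1.29), Erbb4 (2.61 ± 0.830), Tgfa (1.63 ± 0.293), Btc (1.42 ± 0.561), Areg (0.471 ± 1.07) and Ereg (0.0198 ± 0.0255). Of the neighbours in this order, only Egfr was above Erbb4 in all 10 kidneys, and Tgfa and Btc were level, with Tgfa higher in 5 of 10. In tumors the order was Erbb3 (21.2 ± 11.6), Areg (18.5 ± 10.4), Erbb2 (10.8 ± 2.76), Hbegf (8.84 ± 2.42), Egfr (3.42 ± 1.42), Btc (1.85 ± 0.415), Tgfa (0.386 ± 0.440), Egf (0.126 ± 0.0632), Ereg (0.120 ± 0.262) and Erbb4 (0.0436 ± 0.0679). Here Hbegf was above Egfr and Egfr above Btc in all 10 tumors, whereas Erbb3 was above Areg in 6, Areg above Erbb2 in 7 and Erbb2 above Hbegf in 6. Erbb3 was the highest receptor in 10 of 10 tumors and in 8 of 10 normal kidneys, the other 2 having Erbb2 highest.

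The make-up of the ligand transcripts changed from Egf to Areg and Hbegf. Egf made up 91.5% of the summed ligand level of normal kidneys at the median, with a range of 7.58% to 95.1%, and 0.369% (0.133% to 1.13%) in tumors. Areg made up 60.4% (33.8% to 78.5%) in tumors and was the highest ligand in 8 of 10, and Hbegf made up 31.1% (15.4% to 46.7%) and was highest in the other 2, tumors 6 and 7. This lead of Areg rested on the division by length, since in plain CPM it was above Hbegf in 5 of 10 tumors. In normal kidneys Egf was the highest ligand in 7 and Hbegf in the other 3, which were numbers 5, 7 and 8. The summed ligand level fell from a median of 113 to 24.1 CPM per kb, while that of the ligands other than Egf was 9.55 in normal kidneys and 24.0 in tumors at the median, with ranges of 7.36 to 40.1 and 17.0 to 49.0. Among receptors, the share of Erbb4 went from 5.69% to 0.043% at the median, and that of Erbb3 was 46.0% in normal kidneys and 55.1% in tumors. The summed receptor level was 48.7 CPM per kb in normal kidneys and 32.2 in tumors.

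**Figure D2:**
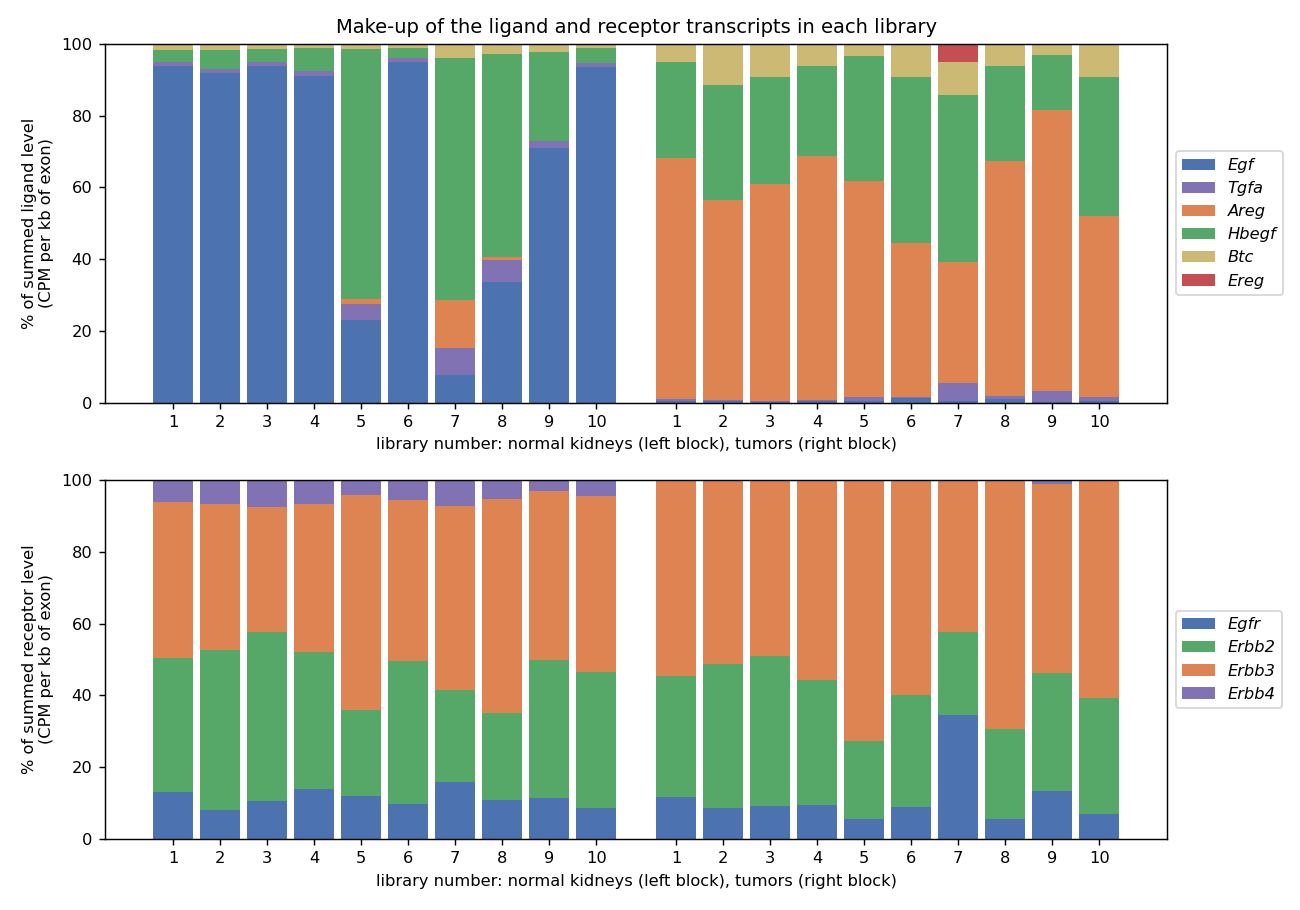
Share of each gene in the summed ligand level (top) and the summed receptor level (bottom) of each library, in percent of CPM per kb of exon, with normal kidneys 1 to 10 on the left and tumors 1 to 10 on the right. Egf fills most of the bar in normal kidneys except 5, 7 and 8, where Hbegf is the largest, and Areg and Hbegf fill the bars of the tumors.

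The normal kidneys differed among themselves in the ligands. Normal kidneys 5, 7 and 8 had 136, 22.3 and 99.4 CPM of Egf, against 477 to 1598 CPM in the others. They had 86.4, 41.9 and 35.2 CPM of Hbegf and the lowest 3 levels of Btc, at 3.22, 4.16 and 3.22 CPM. In the same 3 kidneys Lcn2, which injured tubules secrete, was at 1765 to 3302 CPM, against 9.77 to 50.3 CPM in 6 of the others and 232 CPM in number 9. Slc12a1, the salt transporter of the thick ascending limb, was at 106 to 190 CPM in them and at 805 to 1703 CPM elsewhere, while Umod, a product of the same segment, was at 3419 to 6925 CPM and within or near the range of the others, 3451 to 7910 CPM. The plot of 4 ligands against Lcn2 shows these kidneys apart from the rest, with number 9 between on the Lcn2 axis. For Hbegf, number 9 was near number 8, at 35.0 and 35.2 CPM. Its Areg and Btc, at 0.063 and 5.72 CPM, lay within the range of the other 6.

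**Figure D3:**
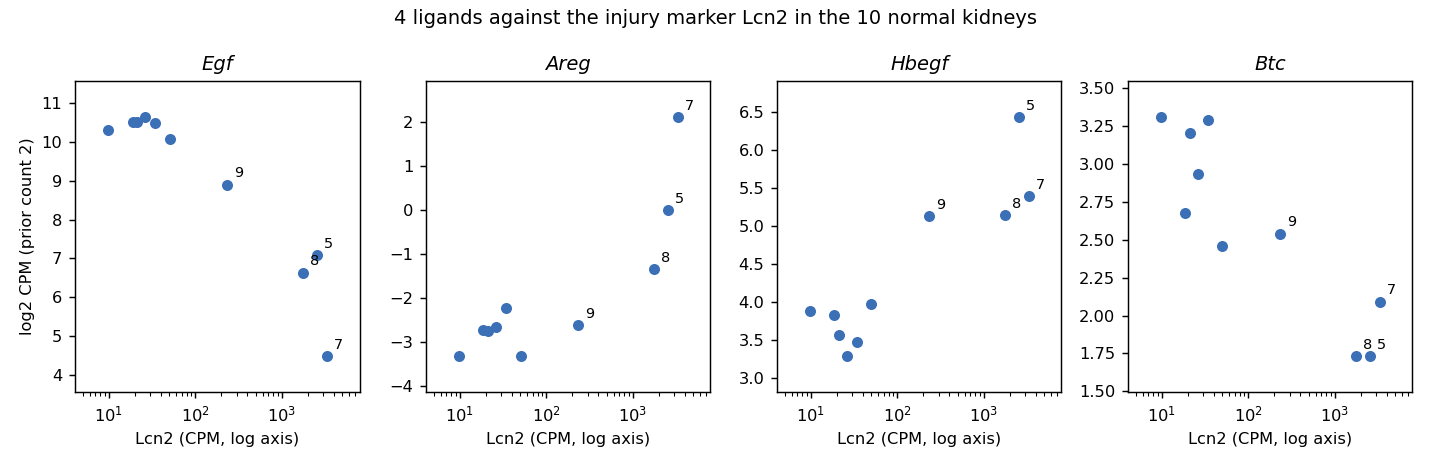
Log2 CPM (prior count 2) of Egf, Areg, Hbegf and Btc on the vertical axes against Lcn2 in CPM on a log axis, for the 10 normal kidneys, with numbers beside 5, 7, 8 and 9. Kidneys 5, 7 and 8, at 1765 CPM of Lcn2 or more, have low Egf and Btc and high Hbegf and Areg.

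Across samples of a group, the 9 tested genes were compared with 2 marker scores, the mean log2 CPM of the distal nephron list and of the injury list, which gives 36 relations. Of these, 9 passed an adjusted p of 0.05, 8 of them in normal kidneys. Since normal kidneys 5, 7 and 8 stood apart, no value over all 10 is given, and without them 0 of 36 passed, with r between the injury score and Egf of -0.60 over 7 kidneys (exact permutation test, p = 0.171, adjusted p = 0.4095) and rho of -0.39 (exact permutation test, p = 0.396, adjusted p = 0.911). Some r stayed large over the 7 kidneys, such as 0.75 for Egf with the distal nephron score (exact permutation test, p = 0.111, adjusted p = 0.333, rho = 0.32). For Btc with the injury score, r was -0.72 (exact permutation test, p = 0.0665, adjusted p = 0.333, rho = -0.71). Without the 2 kidneys farthest from the median score, r turned to -0.48 for Egf (numbers 1 and 9 left out). It was -0.48 for Btc (numbers 2 and 9 left out). Values over so few kidneys show neither that these relations hold there nor that they are absent. In tumors, Btc was lower where the injury score was higher (r = -0.86, permutation p = 0.00228, adjusted p = 0.0137, n = 10) and rho was -0.87 (permutation p = 0.00228, adjusted p = 0.0242), and r was -0.88 without the 2 tumors farthest from the median score. With normal kidneys 5, 7 and 8 out of the family of tests, the adjusted p of that relation was 0.0821. The other 17 relations in tumors did not pass, among them those of Egf, Areg and Hbegf with either score.

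Genes that work around the receptors were read from lists by role, beside the 23.6% of all genes called higher and 23.8% called lower. Of 12 proteases and partners that release the ligands, all tested, 4 rose and 2 fell, with a median log2 fold change of 0.46. Adam10, which cuts Egf and Btc, rose from 84.6 ± 29.97 to 225 ± 19.9 CPM (SD, n = 10), and all tumors were above all normal kidneys (log2 fold change 1.41 ± 0.167, SE, edgeR adjusted p = 5.62e-07). Rhbdl2, a rhomboid protease, rose by 1.67 ± 0.286 on the log2 scale, whereas the related Rhbdl3 fell by 3.27 ± 0.529 and the inactive rhomboid Rhbdf1, a partner of Adam17, fell by 0.29 ± 0.117 (edgeR adjusted p = 0.0425). The list had 1 gene lower, not 2, in 13 of the 20 fits that left out a library. Adam17, the main sheddase of Areg, Hbegf and Tgfa, and Adam9 rose by 0.77 and 0.81. Of the other ligands, Nrg1, the neuregulin that binds Erbb3 and Erbb4, rose from 20.0 ± 6.23 to 34.3 ± 16.4 CPM (log2 fold change 0.78 ± 0.257, SE, edgeR adjusted p = 0.0166). With the library number as a block the call for Nrg1 was lost (0.68, adjusted p = 0.0532). Nrg4 was not called, and Epgn, Nrg2 and Nrg3 did not pass the filter.

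Of 17 genes tested that restrain or recycle the receptors, 5 rose and 3 fell, with a median of 0.14, but scaling by library totals gave 2 higher and 4 lower. Epn1, an adaptor of endocytosis, rose by 1.05 ± 0.125 on the log2 scale and Lrig1, which promotes receptor degradation, by 0.68 ± 0.152. Errfi1, a direct inhibitor of the receptor kinases, fell from 545 ± 188 to 287 ± 159 CPM (log2 fold change -0.92 ± 0.261, SE, edgeR adjusted p = 0.00602), and Socs5 fell by 1.33 ± 0.174. Of 24 adaptors and kinases of the MAPK and PI3K branches, 6 rose and 2 fell, with a median of 0.09. The number lower was 4 without normal kidney 9 (with 7 higher) and 4 with upper quartile scaling (with 5 higher). Map2k1, which encodes the kinase MEK1, rose from 72.2 ± 5.68 to 146 ± 8.10 CPM with no overlap (log2 fold change 1.01 ± 0.0699, SE, edgeR adjusted p = 2.49e-10), and the scaffold Ksr1 rose by 1.24 ± 0.201. The regulatory subunits of PI3K Pik3r1 and Pik3r3 fell by 0.99 ± 0.159 and 0.55 ± 0.188.

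Genes that ERK signalling induces, many of which feed back on it, were called lower more often than higher. Of 20, all tested, 2 rose and 9 fell, 45.0% against 23.8% of all genes, with a median log2 fold change of -0.62. Those that rose were Ccnd1, which encodes cyclin D1 (1.49 ± 0.35, SE, edgeR adjusted p = 0.00146), and Dusp6, a phosphatase of ERK (0.89 ± 0.169, adjusted p = 0.000178). The largest falls were those of Epha4 (-3.84 ± 0.41, adjusted p = 1.34e-07), an ephrin receptor, and Etv1 (-3.38 ± 0.508, adjusted p = 1.26e-05), an ETS factor. Etv4, Etv5, Spry1, Spry2, Spred1, Spred2 and Dusp4 also fell, whereas Fos, Egr1 and Fosl1 were not called. Without normal kidneys 5, 7 and 8, 6 of the 20 rose and 7 fell, so the lean towards lower calls nearly went with these 3 libraries. Of 10 genes of tubule salt and magnesium transport, some of which Egf is known to regulate, 9 were tested. Among them 7 fell and none rose, with a median log2 fold change of -7.26. Slc12a3 fell from 1170 ± 549 to 2.00 ± 2.56 CPM (log2 fold change -9.20 ± 0.78, SE, edgeR adjusted p = 4.47e-09), Scnn1b fell by 8.42 ± 0.563, and Trpm6, the magnesium channel, fell by 1.70 ± 0.421. Several of these genes are made in the segments whose markers fell with Egf. The lists share members, since Slc12a3 is also a distal nephron marker and Scnn1g a collecting duct marker, so their falls are not separate evidence. Trpm7 and Cnnm2 were not called, at 117.5 and 32.1 CPM in tumors against 137.3 and 38.7 CPM in normal kidneys.

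**Figure D4:**
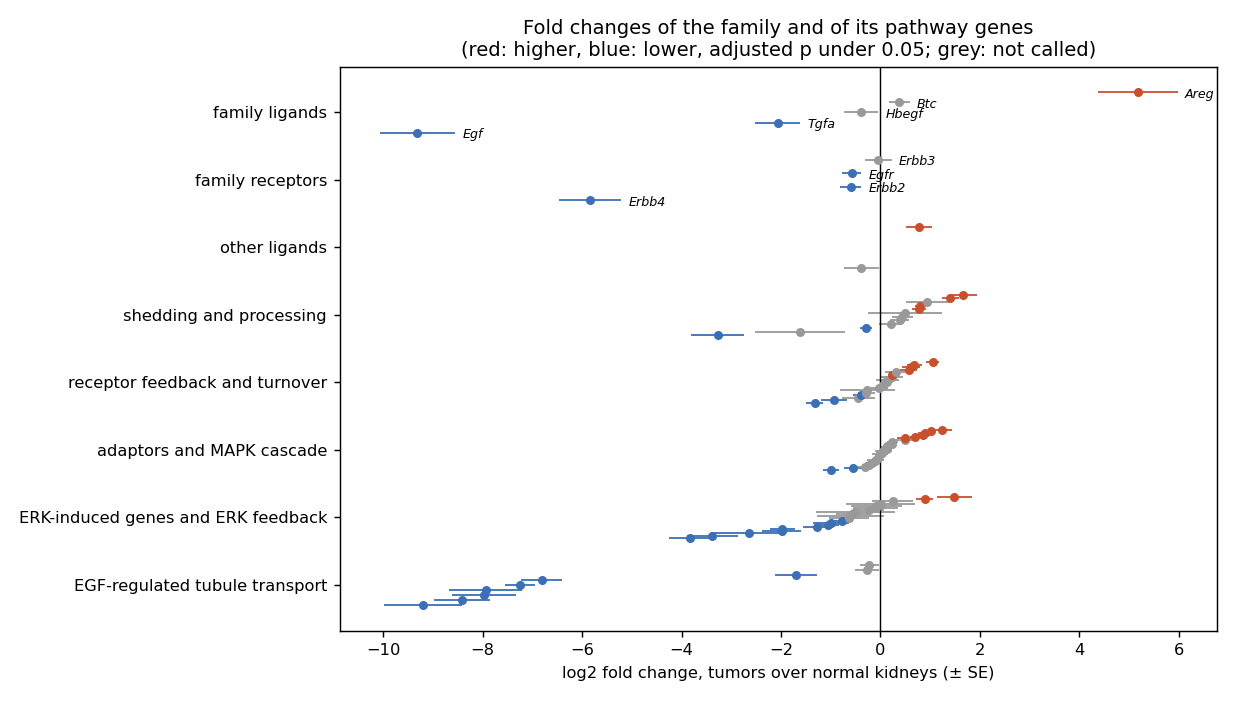
Log2 fold change of tumors over normal kidneys with its SE, for the family genes that were tested (named) and for the pathway genes of each list (1 point a gene); red and blue points passed an adjusted p of 0.05 as higher and lower, grey points did not. Areg is the highest point and Egf the lowest of the family, and the tubule transport genes lie between -9.20 and -0.22.

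The protein-coding genes most like each member were found among 13694 by the correlation of log2 CPM over all 20 libraries after the group means were taken off, so the libraries that stand apart weigh on it. Hbegf was most like Myc (r = 0.92), Bcl2l1 and Jun (both 0.91). Egf was most like Atp4a (0.92), Acadsb and Xpnpep2 (both 0.90), and Areg was most like Aldh1a1 and Gatad2a (both 0.88) and Zdhhc18 (0.86). For the receptors, the closest genes were Srgap3 for Egfr (0.88), Rnf152 for Erbb2 (0.91), Bmt2 for Erbb3 (0.91) and Epas1, which encodes HIF2alpha, for Erbb4 (0.87). Tgfa was closest to Plcb4 (0.89) and Btc to Fut9 (0.88). Within the family itself, r on the same scale was -0.78 between Egf and Areg, -0.75 between Hbegf and Btc, and 0.65 between Areg and Hbegf.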

How the data were processed

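RNA of flash-frozen tissue was extracted with Trizol, and a company prepared poly(A) libraries and sequenced them. The authors deposited raw counts per gene without normalization, with mm10 named as the genome build in the submitters' processing notes. The aligner, counter, versions and strand are not given in the sources used here. Counts were scaled with TMM factors and tested with the quasi-likelihood test of edgeR 4.0.16 (R 4.3.3, no covariate, low-count filter with a minimum of 10, Benjamini-Hochberg adjustment). DESeq2 1.42.0 and limma 3.58.1 were alternatives. Levels are CPM, CPM per kb of exon, or log2 CPM with a prior count of 2, and approximate intervals are ± 1.96 SE. Permutation tests were two-sided, with 100000 resamples for 10 samples and all arrangements for 7. Total counts set the precision, and limits from 0 counts cover counting error only. On simulated data of 15206 genes the edgeR test recovered 47% of genes changed by a log2 fold of 1 and 90% of those changed by 2, with 2.84% false calls. The simulation changed 200 genes and drew each library independently. In the data, 47.5% of genes were called and several libraries stood apart, so these rates need not hold for them. Between replicates, chi-square over degrees of freedom was 14.0 or more, so no library was a copy of another.

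The family, the lists and the alternatives were chosen with earlier results of these data known. Named pathway genes are, in each list, the 2 called genes with the largest rise and the 2 with the largest fall among those that reached a mean level of 1 CPM in either group. Adam9, Adam17, Nrg4, the tubule transport genes other than Slc12a3 and Scnn1b, and the further ERK-induced and not-tested genes were named after their values were seen. So were the single library values of marker genes. Of marker lists not described with a result, podocyte markers had 5 of 6 lower, proximal tubule 3 of 10 lower, injury 2 of 8 higher and 1 lower, macrophage 4 of 8 higher, neutrophil 1 of 4 higher, T and NK cell 1 of 4 lower, endothelium 1 of 6 higher and 1 lower, fibroblast 1 of 6 lower, and mast cell (1 tested) and urothelium (5) none. RefSeq promoters were found for 7 members, and those of Areg, Egf, Erbb4, Tgfa, Egfr, Erbb2 and Btc were searched.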

Additional observations from a re-analysis of the deposited data

Results flagged for a closer look

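Each of the 10 genes was examined in each group for a library farther from its nearest neighbour than Dixon's 95% critical value for 10 samples (0.466 of the range). Of these 20 tests, 4 found such a library, and chance gives about 1 in 20. Tumor 7 was alone at the top for Ereg, at 1.87 log2 CPM with the next tumor at -0.88, and for Egfr, at 6.37 with the next at 5.41. It also held the highest fibroblast, macrophage, neutrophil and urothelium marker levels among the tumors, and their part in these values was not tested. Normal kidney 9 was alone at the bottom for Egfr, at 4.74 log2 CPM with the next kidney at 5.62, and for Erbb4, at 2.95 with the next at 4.75. Its counts of genes over 6000 bases were low in general (median log2 difference -0.88), and Egfr and Erbb4, with 11.3 and 12.4 kb of exon, belong to these. Their own log2 differences from the mean of the other kidneys were -1.18 and -2.17, and the part of length in them was not tested.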

How the results depend on the processing

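The calls for Egf, Tgfa, Areg and Erbb4 held in all alternatives run, with log2 fold changes of -9.88 to -8.78, -3.18 to -1.92, 5.00 to 8.73 and -7.67 to -5.68. The number of family genes called higher was 2 in place of 1 without the low-count filter (with Ereg, 2.55), under limma-voom with quality weights (with Hbegf, 0.56) and with the replicate block (with Btc, 0.45, adjusted p = 0.0247), and 1 in each fit that left out a library. The number called lower was 3 under limits of 1 on the log2 fold change and 0.001 on the unadjusted p, and 4 to 5 with a library left out. Under those limits, all genes called were 1359 higher and 1571 lower, and pathway genes 6 higher and 15 lower, in place of 3631, 3661, 18 and 23; quality weights gave 32 pathway genes higher. With a library left out, the ranges were 3420 to 4052 and 3474 to 4201 for all genes, and 17 to 22 and 21 to 27 for pathway genes. Hbegf turned to 0.40 without normal kidneys 5, 7 and 8, an alternative chosen after seeing the data, and Erbb3 to 0.12 there, and to 0.053, 0.026, 0.020, 0.037 and 0.017 without normal kidney 5, normal kidney 8, tumor 3, tumor 7 and tumor 9, within a range of -0.24 to 0.053 over the fits without a library, and the cause was not tested. Without division by gene length, 4 of 10 members kept their place in the order of levels of tumors, and 7 in normal kidneys. No relation with a marker score passed (0 in place of 9) without the 2 samples farthest from the median score or without normal kidneys 5, 7 and 8. Scaling by upper quartiles or library totals moved the share of called genes that were higher from 49.8% to 39.2% and 38.5%, and the median log2 fold change to -0.14 in both. With presence of the Y-linked Ddx3y as a covariate, also added later, the calls for all 9 family genes stayed as they were.

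Both groups carry the numbers 1 to 10, and no label says whether libraries of the same number are from the same mouse. Deviations of same-numbered libraries correlated at 0.19 to 0.38 in 9 pairs and at -0.143 in number 9, 8 of 10 tumors correlated best with the kidney of their number, and Ddx3y was present or absent alike in 10 of 10 pairs. With the number as a replicate block, 7865 genes were called in place of 7292, and Nrg1 was no longer called. Between 14737516 and 26679704 counts per library limit what can be said of Ereg and of Egf and Erbb4 in tumors, which rest on fewer than 100 reads each. The same limit holds for Tgfa in most tumors, where its median was 28.5 reads.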

Other observations

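Values of same-numbered tumors and kidneys were set side by side for the 10 genes, as a comparison added after the data were seen. Erbb3, which did not differ between the groups, varied together in them (r = 0.87, permutation p = 0.00106, adjusted p = 0.0106 over 10 genes; rho = 0.94, permutation p = 0.00018, adjusted p = 0.0018; n = 10). Tumors 5 and 8, at 272 and 228 CPM, bore the numbers of the 2 kidneys with the most Erbb3, at 210 and 189 CPM. The r was 0.95 without the 2 kidneys farthest from the median and 0.97 without number 9, and 1.78% of 15354 genes had a higher r, against a median of 0.20. Kidneys with and without Ddx3y counts had medians of 118 and 132 CPM, and tumors 104 and 108 CPM, with 5 libraries each, too few for a value within them. Btc had r = 0.74 (permutation p = 0.0174, adjusted p = 0.0473) and rho = 0.71 (permutation p = 0.0269, adjusted p = 0.0895), and 0.59 without the 2 farthest. Erbb2 had the same r (permutation p = 0.0189, adjusted p = 0.0473) with rho = 0.35 (permutation p = 0.333, adjusted p = 0.667), and r turned to -0.49 without the 2 farthest, so it rested on those. For Ereg, with few counts, r was 0.80 (permutation p = 0.00242, adjusted p = 0.0121; rho = 0.81, permutation p = 0.0081, adjusted p = 0.0405) and 0.60 without the 2 farthest. The other 6 genes had adjusted p of 0.0552 or more.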
